A study of Mus musculus with 6 samples.

Results

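The genes described here are the mouse cytochrome P450 genes of families 1 to 4. They were chosen by symbol, as the genes named on the promoter lines of either HiCap replicate list whose symbol is Cyp, a family number of 1 to 4, a single subfamily letter and a number. The rule found 69 of the 21202 genes that the replicate lists name, with 75 promoter fragments and 21 subfamilies. HiCap joins Hi-C, which records DNA ends ligated to each other in fixed nuclei, to capture of promoter fragments with probes. It was run on 2 biological replicates of undifferentiated R1 mouse embryonic stem cells, a single line kept with serum and LIF, and Hi-C without capture was run on 2 replicates of the same untreated line. The cells were fixed with formaldehyde and cut with MboI, which cuts at GATC, so that contacts are placed at short restriction fragments. Of the 188 distal regions described below, 18 held a further GATC and so spanned more than 1 such fragment. The lists hold positions and no read numbers or expression values, so neither the depth behind an interaction nor the markers of the cells could be checked in them.

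Cytochrome P450 enzymes are heme proteins that insert an oxygen atom into small lipophilic molecules. The members of families 1 to 3 are known for the oxidation of drugs, toxicants and steroids, and those of family 4 for hydroxylation of fatty acids and eicosanoids, most of them in liver, lung, kidney or gut. Several subfamilies lie in mouse as arrays of neighbouring copies, and many members are switched on by the receptors for foreign compounds Ahr, Nr1i2 and Nr1i3.

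An interaction was called when the same promoter fragment and the same distal region stood in both replicate lists. Of the 69 P450 genes, 39 had a called interaction (56.5%, exact 95% interval 44.0 to 68.4), and of all listed genes 60.7% did, a value inside that interval. The P450 genes held 1348 pairs of promoter and distal region in replicate 1 and 1300 in replicate 2. Of these, 196 pairs were called, with 188 distinct distal regions. The number listed for the median gene was 10 in replicate 1 and 14 in replicate 2, against 12 and 11 over all genes. Called pairs averaged 2.84 per P450 gene and 4.47 per listed gene. Intervals cover counting error only, and neighbouring genes are not independent.

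The calls were unevenly spread. Cyp2d34, Cyp1b1, Cyp4f40, Cyp2s1 and Cyp2b10 together held 77 of the 196 called pairs (39.3%), whereas 14 of the 39 called genes had a single call and 30 genes had none. Cyp1b1 oxidizes estradiol and polycyclic hydrocarbons and is known outside the liver. Cyp2s1 is known from epithelia, and Cyp2b10 is the phenobarbital-inducible enzyme under Nr1i3 in mouse liver.

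**Figure D1:**
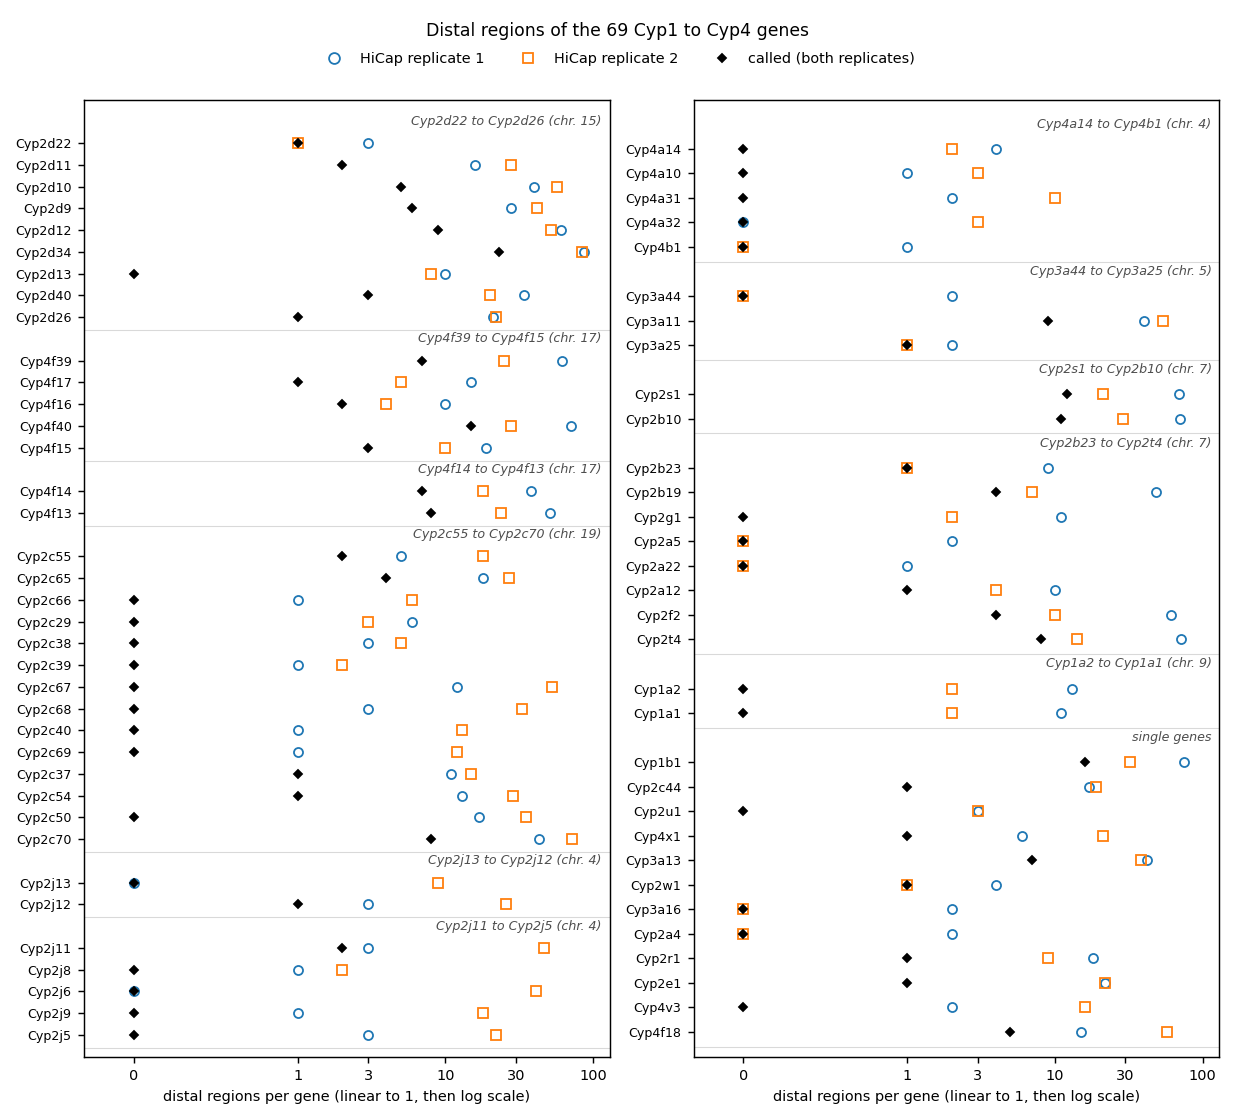
Distal regions of each of the 69 genes in HiCap replicate 1 (circles), in replicate 2 (squares) and in both (diamonds, called), grouped by cluster, on an axis that is linear to 1 and logarithmic beyond. Cyp2d34 has the most calls, 23, and the 5 genes of the Cyp4a14 to Cyp4b1 cluster and both Cyp1a genes have none.

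Genes were taken as clustered when the promoter of another P450 gene of these families lay within 200 kb. Of the 57 clustered genes in 11 clusters, 31 had a call (54.4%, 40.7 to 67.6), against 8 of 12 single genes (66.7%, 34.9 to 90.1). These intervals overlap widely. The median number of calls was 1 in clustered and 1 in single genes, and the median called distance was 7.66 kb and 8.53 kb. Among clusters of 5 or more genes, the called share ran from 0 of 5 (0 to 52.2%) to 5 of 5 (47.8 to 100%). These 2 intervals overlap. Extremes of several small groups spread widely by counting error alone, so this range cannot be set against the difference between clustered and single genes.

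The Cyp2d cluster on chromosome 15 lies between Cyp2d22 and Cyp2d26 and holds 9 genes, of which 8 had a call, with 50 called pairs. Of all listed genes of chromosome 15, 72.7% had a call. Cyp2d genes are the mouse relatives of the human drug-metabolizing gene CYP2D6. Cyp2d34 had 87 listed regions in replicate 1, 85 in replicate 2 and 23 in both. Cyp2d12 had 61, 52 and 9, and Cyp2d10 had 40, 57 and 5. Over the cluster the replicates listed similar numbers of pairs, 300 and 315. Cyp2d9 had 28, 42 and 6, Cyp2d40 had 34, 20 and 3, and Cyp2d11 had 16, 28 and 2. Cyp2d22 had 3, 1 and 1, and Cyp2d26 had 21, 22 and 1. Cyp2d13, with 10 and 8 distal regions, was the only gene of the cluster without a shared one.

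Of the 23 distal regions of Cyp2d34, 16 lay upstream and 7 downstream, at 2.55 to 177 kb. The most distant was a region of 340 bp at chr15:82273843-82274182 (mm9), outside annotated genes. The same region was called for Cyp2d9 at 8.79 kb and for Cyp2d11 at 49.6 kb, and it was the only called region linked to 3 of the P450 genes. In replicate 1 it was listed for Cyp2d9, Cyp2d11, Cyp2d26 and Cyp2d34, and in replicate 2 for Cyp2d9, Cyp2d11, Cyp2d12, Cyp2d13 and Cyp2d34. None of its 3 called pairs was in the Hi-C list.

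This region resembles the promoter fragments of the cluster. It matched that of Cyp2d10 at 93.2% over 336 bp, that of Cyp2d12 at 93.0% over 328 bp and that of Cyp2d40 at 90.2% over 305 bp. It also matched that of Cyp2d13 at 89.3% over 327 bp and that of Cyp2d34 at 86.7% over 338 bp. Of the 3 genes called with the region, only Cyp2d34 had such a match, and the fragments of Cyp2d9 and Cyp2d11 are too short for one. A stretch of 150 bases is shown for 3 called distal regions and 3 promoter fragments. It was taken without gaps from the start codon on, so its likeness does not measure that of whole fragments. Each is written in the direction of transcription of the promoter it resembles, from mm9, with bases that differ from the line at the top in capitals. In Cyp2d10, Cyp2d12 and Cyp2d40 the stretch begins at the annotated start codon.
Region of Cyp2d9, Cyp2d11 and Cyp2d34, chr15:82273910-82274059, plus strand: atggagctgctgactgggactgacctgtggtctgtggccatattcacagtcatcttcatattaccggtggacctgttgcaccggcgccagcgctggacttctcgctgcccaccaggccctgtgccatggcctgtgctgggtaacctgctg
Region of Cyp2d26, chr15:82612391-82612540, minus strand: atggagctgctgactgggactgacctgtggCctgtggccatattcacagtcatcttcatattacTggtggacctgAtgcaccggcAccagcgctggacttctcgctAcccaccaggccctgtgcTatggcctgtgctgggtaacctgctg
Region of Cyp2d34 and Cyp2d37-ps, chr15:82523282-82523431, minus strand: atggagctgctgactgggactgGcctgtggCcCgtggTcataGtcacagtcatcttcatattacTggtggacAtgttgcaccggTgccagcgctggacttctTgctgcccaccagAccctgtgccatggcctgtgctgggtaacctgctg
Cyp2d10 promoter, chr15:82237403-82237552, minus strand: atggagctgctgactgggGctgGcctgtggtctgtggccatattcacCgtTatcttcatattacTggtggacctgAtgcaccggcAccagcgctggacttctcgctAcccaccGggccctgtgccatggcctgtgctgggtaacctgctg
Cyp2d12 promoter, chr15:82385577-82385726, plus strand: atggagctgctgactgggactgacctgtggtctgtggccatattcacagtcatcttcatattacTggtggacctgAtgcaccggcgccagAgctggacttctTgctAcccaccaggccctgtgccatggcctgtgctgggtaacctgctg
Cyp2d40 promoter, chr15:82594391-82594540, minus strand: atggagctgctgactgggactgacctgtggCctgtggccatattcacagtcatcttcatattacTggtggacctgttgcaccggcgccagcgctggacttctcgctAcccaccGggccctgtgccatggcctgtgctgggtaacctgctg

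Over these 150 bases the called region of Cyp2d26 differed from the line at the top at 6 bases, that of Cyp2d34 and Cyp2d37-ps at 10, and the promoter fragments of Cyp2d10, Cyp2d12 and Cyp2d40 at 9, 5 and 4. Over the longer matches to promoter fragments, identity was 87.0 to 91.4% for the region of Cyp2d26. For that of Cyp2d34 and Cyp2d37-ps it was 82.9 to 88.3%. The region of Cyp2d26 lies in the annotated gene Gm5062, and the other 2 regions lie outside annotated genes. Of the 188 called distal regions of the P450 genes, 7 (3.72%, 1.51 to 7.52) matched a promoter fragment within 1 Mb at 80% identity or more over at least 50% of their length, against 523 of 71922 called regions of all genes (0.727%). All but 1 of the 7 were in the Cyp2d cluster, and the other was a region of 159 bp called for Cyp4f14 that resembles a promoter fragment of Cyp4f13. They held 8 of the 50 Cyp2d pairs. Without them 42 pairs remained at 7 of the 9 Cyp2d genes, and Cyp2d26 lost its only call. The part of this likeness in the calls was not tested.

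The shortest promoter fragments of the P450 genes were those of Cyp2d9 with 21 bp, Cyp2c38 with 34 bp and Cyp2d11 with 36 bp. Cyp2d9 and Cyp2d11 had called pairs, and Cyp2c38, with 3 listed regions in replicate 1 and 5 in replicate 2, had none. Those of Cyp2d9 and Cyp2d11 are shown with the flanking MboI sites in the direction of transcription, with the longest run that they share, 20 bases, in capitals.
Cyp2d9, chr15:82282794-82282818, plus strand: gatccAAGCTTGGGGCTTCCTGATC
Cyp2d11, chr15:82224441-82224480, minus strand: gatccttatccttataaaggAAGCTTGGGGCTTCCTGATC

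Over all genes, 101 of 187 promoter fragments under 50 bp had a call (54.0%), close to the 51.9% of all listed promoter fragments.

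All 8 Cyp4f genes had a call, with 48 called pairs. Among all listed genes, 63.5% had a call on chromosome 17 and 72.6% on chromosome 8. Cyp4f enzymes hydroxylate leukotrienes and long-chain fatty acids. In the cluster of Cyp4f39 to Cyp4f15 on chromosome 17, Cyp4f40 had 71 listed regions in replicate 1, 28 in replicate 2 and 15 in both, and Cyp4f39 had 62, 25 and 7. Cyp4f15 had 19, 10 and 3, Cyp4f16 had 10, 4 and 2, and Cyp4f17 had 15, 5 and 1. In the neighbouring cluster, Cyp4f14 had 38, 18 and 7 and Cyp4f13 had 51, 24 and 8. Every Cyp4f gene of chromosome 17 had more distal regions in replicate 1. The single gene Cyp4f18 on chromosome 8, which inactivates leukotriene B4, ran the other way with 15, 57 and 5.

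Of 38 called regions of the Cyp4f clusters of chromosome 17, 5 were linked to several genes (13.2%). This share is near the 13.9% of the called regions of all genes. A region in an exon of Cyp4f39 (chr17:32628884-32629442) was called for Cyp4f39 at 40.4 kb and for Cyp4f17 at 14.1 kb, and for Akap8l and Pglyrp2 as well. A region in an exon of Cyp4f40 (chr17:32812892-32813361) was called for Cyp4f40 at 16.7 kb and for Cyp4f15 at 9.25 kb. A region in Gm9705 (chr17:32771356-32772791) was called for Cyp4f15 at 50.3 kb, for Cyp4f16 at 98.6 kb and for Gm9705 itself. A region in an exon of Cyp4f16 (chr17:32687935-32689041) was called for Cyp4f15 at 134 kb and for Cyp4f41-ps at 414 kb. Each of these regions lay inside a gene of the locus and was linked to the promoter of another. A region in an exon of Cyp4f14 (chr17:33042665-33043544) was called for Cyp4f14 at 11.0 kb and for both promoter fragments of Cyp4f13 at 19.2 and 41.2 kb, and also for Cyp4f41-ps, RP23-144A16.3 and Zfp870. Of these pairs, those of Cyp4f40 at 16.7 kb and of Cyp4f14 at 11.0 kb were also in the Hi-C list.

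The Cyp2c genes formed the largest cluster, 14 genes between Cyp2c55 and Cyp2c70 on chromosome 19, and 5 had a call, with 16 called pairs. The called share over all listed genes of chromosome 19 was 74.8%. Cyp2c enzymes epoxidize arachidonic acid and oxidize many drugs, and Cyp2c70 is the mouse enzyme that makes muricholic bile acids. Cyp2c70, at the edge of the array, had 43 listed regions in replicate 1, 72 in replicate 2 and 8 in both. Cyp2c65 had 18, 27 and 4, and Cyp2c55 had 5, 18 and 2. Cyp2c37 had 11, 15 and 1, and Cyp2c54 had 13, 29 and 1. Of the 14 genes, 13 had more distal regions in replicate 2. Cyp2c67 had 12 and 53 distal regions and Cyp2c50 had 17 and 35, yet none was the same in both lists, and Cyp2c68 had 3 and 33 with none in common. Cyp2c70 also held the longest called pair of any of the P450 genes, at 1178 kb, with a region in an intron of Cyp2c55 at the other end of the array and 13 listed promoter fragments in between. Over all genes 66 called pairs were over 1 Mb, and this pair was not in the Hi-C list.

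On chromosome 7, both genes of the pair Cyp2s1 and Cyp2b10 had calls. Cyp2s1 had 69 listed regions in replicate 1, 21 in replicate 2 and 12 in both, and Cyp2b10 had 70, 29 and 11. An intergenic region between them, chr7:26639280-26639777, was called for both, at 37.3 kb from Cyp2s1 and 43.5 kb from Cyp2b10, upstream of each. It was in the Hi-C list for neither gene. Its leading 300 of 498 bases are shown because it is the only called region that linked genes of different P450 subfamilies, with the GATC sites of MboI in capitals.
Region of Cyp2s1 and Cyp2b10, chr7:26639280-26639579, plus strand: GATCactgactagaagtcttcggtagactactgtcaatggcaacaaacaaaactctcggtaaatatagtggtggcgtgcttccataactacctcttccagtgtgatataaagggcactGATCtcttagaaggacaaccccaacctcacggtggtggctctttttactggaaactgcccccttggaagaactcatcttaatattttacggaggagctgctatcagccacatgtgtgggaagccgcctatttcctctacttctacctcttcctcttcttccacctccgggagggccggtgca

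Cyp2s1 was also linked to regions that many other promoters shared. A region in an exon of Exosc5, 150 kb downstream of Cyp2s1, was called for 12 genes, among them Tgfb1, Axl, Bckdha, Hnrnpul1, Lipe, B9d2, Tmem91, Atp5sl, B3gnt8, Ceacam2 and Gm7092. Another at 108 kb was called for Cyp2s1, Ccdc97 and Hnrnpul1, and a region in an intron of Cyp2s1 at 10.0 kb for Cyp2s1 and Hnrnpul1. In the same way the only called region of Cyp2w1, at 24.5 kb in 3110082I17Rik on chromosome 5, was called for 11 genes, which were also Sun1, Uncx, Gper, Gpr146, Cox19, Adap1, Mir339, C130050O18Rik, AC125065.4 and D830046C22Rik. The middle of this region lay 0.002 kb from that of the promoter fragment of D830046C22Rik. It thus overlaps a listed promoter fragment and is not distal to that gene.

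In the cluster of Cyp2b23 to Cyp2t4 on chromosome 7, 5 of 8 genes had a call, against 63.5% of all listed genes of that chromosome. Cyp2t4 had 71 listed regions in replicate 1, 14 in replicate 2 and 8 in both. Cyp2f2, which activates naphthalene in the lung, had 61, 10 and 4, and Cyp2b19 had 48, 7 and 4. Cyp2a12 had 10, 4 and 1, and Cyp2b23 had 9, 1 and 1. All 8 genes had more distal regions in replicate 1. Cyp2g1, an olfactory mucosa enzyme, had 11 and 2 with none in common, and 2 further genes of this cluster were listed by replicate 1 alone.

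In the cluster of Cyp3a44 to Cyp3a25 on chromosome 5, Cyp3a11, the main Cyp3a enzyme of mouse liver and a target of Nr1i2, had 40 listed regions in replicate 1, 54 in replicate 2 and 9 in both. Cyp3a25 had 2, 1 and 1, and the remaining gene of this cluster was listed by replicate 1 alone. The single gene Cyp3a13 had 42, 38 and 7, and all 7 of its called regions lay downstream in its own gene at 6.23 to 20.7 kb.

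On chromosome 4, 3 of 13 genes had a call, against 48.4% of all listed genes of that chromosome. Cyp2j enzymes epoxidize arachidonic acid, and Cyp2j11 had 3 listed regions in replicate 1, 47 in replicate 2 and 2 in both, and Cyp2j12 had 3, 26 and 1. Cyp2j6 had none in replicate 1 and 41 in replicate 2, and Cyp2j5 had 3 and 22 with none in common. In the cluster of Cyp4a14 to Cyp4b1, which holds the fatty acid hydroxylases induced by Ppara, none of the 5 genes had a call, and their pairs summed to 8 in replicate 1 and 18 in replicate 2. Of the genes on chromosome 4, 3 were listed by replicate 2 alone, 1 each in the 2 Cyp2j clusters and 1 in that of Cyp4a14 to Cyp4b1, where 1 more was listed by replicate 1 alone. The single gene Cyp4x1 had 6, 21 and 1.

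Cyp1a1 and Cyp1a2, the classical targets of Ahr, lie next to each other on chromosome 9 and had no call. On that chromosome 53.4% of all listed genes had a call. Cyp1a1 had 11 listed regions in replicate 1 and 2 in replicate 2, and Cyp1a2 had 13 and 2. Hi-C listed 4 pairs for Cyp1a1, none of them in either HiCap replicate, and 3 for Cyp1a2, of which 1 was in replicate 1. The third Ahr target, Cyp1b1 on chromosome 17, stood in contrast, with 75 distal regions in replicate 1, 32 in replicate 2 and 16 in both. Of the 16, 10 lay upstream, 4 in its own gene and 3 over 100 kb away. The one at 129 kb was in the Hi-C list too, and was called also for Atl2 and Fam82a1.

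Among the other single genes, Cyp2c44 had 17 listed regions in replicate 1, 19 in replicate 2 and 1 in both, and Cyp2e1, the ethanol-inducible enzyme, had 22, 22 and 1. Cyp2r1, a vitamin D 25-hydroxylase, had 18, 9 and 1, the last at 132 kb in an intron of Pde3b. Cyp2w1 had 4, 1 and 1. The single genes without a call were Cyp2u1 with 3 and 3, Cyp4v3 with 2 and 16, and Cyp3a16 and Cyp2a4 with 2 and 0 each. All 4 had 3 or fewer listed regions in at least 1 replicate.

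**Figure D2:**
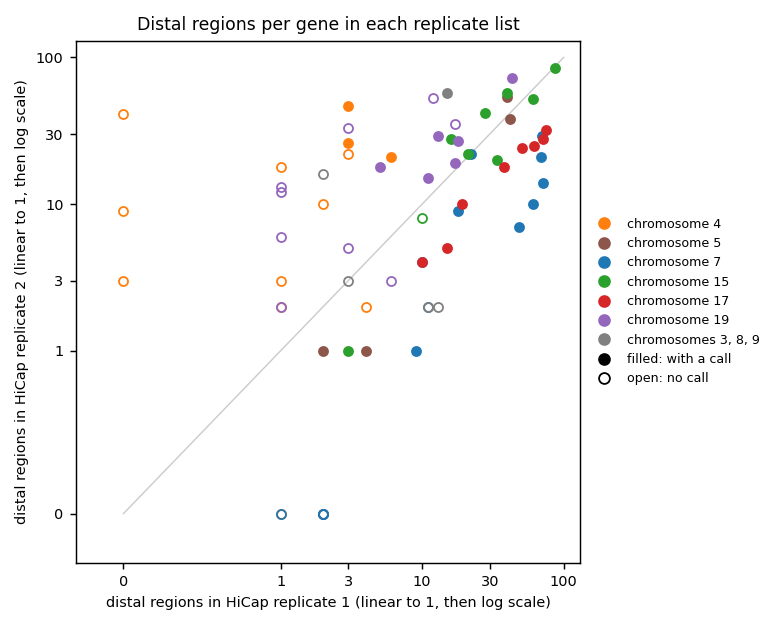
Distal regions of each gene in replicate 1 (x axis) and replicate 2 (y axis), linear to 1 and logarithmic beyond, coloured by chromosome, filled for genes with a call, with a line of equality. Genes of chromosome 17 lie below the line, genes of chromosomes 4 and 19 mostly above it, and open symbols mostly have 3 or fewer regions in at least 1 replicate.

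The balance of the replicate lists differed by chromosome over all genes, and that of the P450 genes lay on the same side of 1 on chromosomes 4, 5, 7, 8, 9, 17 and 19. The pairs of replicate 2 over those of replicate 1, a ratio of numbers of listed pairs, were 8.16 for the P450 genes of chromosome 4 and 2.89 for all promoter fragments of that chromosome. On chromosome 19 the ratios were 2.25 and 1.49, on chromosome 8 they were 4.29 and 2.31, on chromosome 5 they were 1.02 and 1.65, and on chromosome 15 they were 1.05 and 0.840. On chromosome 17 they were 0.428 and 0.368, on chromosome 7 they were 0.302 and 0.439, and on chromosome 9 they were 0.167 and 0.326. Across chromosomes the ratio over all promoters ran between 0.247 and 3.85. In the clusters with a ratio above 1 on chromosomes 4 and 19, the median G+C content of 100 kb around the promoters was 38.7 to 42.2%, against 43.0 to 47.0% in those of chromosomes 7, 9 and 17. The Cyp2d cluster, with 315 pairs in replicate 2 and 300 in replicate 1, had 44.2%, and the Cyp3a44 to Cyp3a25 cluster, with 55 and 44, had 41.1%. Over the 69 genes Spearman's rho of this G+C content with the log2 ratio of replicate 2 to replicate 1 was -0.61, and over 21200 listed genes it was 0.012. Genes of a cluster share chromosome and surroundings, so these points are not independent. The part of the chromosome balance and G+C content in the calls was not tested.

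The called share differed with the number of distal regions listed. Of the 28 P450 genes with at least 10 distal regions in each replicate, 26 had a call (92.9%, 76.5 to 99.1), against 96.7% of 8758 such genes among all. Of the 41 other P450 genes, 13 had a call (31.7%, 18.1 to 48.1), against 35.4% of all other genes. A call requires listing in both replicates, so this split is a description. Cyp2c50 and Cyp2c67 were the 2 genes with at least 10 in each replicate and no call.

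In a BLAST search, the promoter fragments of 21 genes matched that of another P450 gene at 90% identity or more over at least 50% of the shorter fragment. Examples were Cyp2a4 and Cyp2a5 at 98.7% over 603 bp, Cyp2c40 and Cyp2c69 at 97.8% over 634 bp and Cyp3a16 and Cyp3a44 at 96.0% over 329 bp. The search found no match for the very short fragments of Cyp2d9 and Cyp2d11, although these share the run of 20 bases shown above. Both genes had calls and are counted among the others here. Of these 21 genes, 7 had a call (33.3%, 14.6 to 57.0), against 32 of the 48 others (66.7%, 51.6 to 79.6). Their median was 3 listed regions in replicate 1 and 12 in replicate 2, against 12 and 17 in the others. Cyp2d34, with the most calls of all, was among the 21. Reads with several positions were discarded before the lists were made. For 10 of the 21 genes both ends of the promoter fragment were unique, as defined next, and the values of the 11 others are the less certain. Cyp2d34 is among these 11, with 1 unique end. Both ends of the promoter fragment, read as 31 bases each, occurred once in the genome for 59 of 74 P450 promoter fragments (79.7%) and for 91.8% of all listed ones. The share was 84.1% in genes with a call and 73.3% in genes without. Its part in the calls was not tested.

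The P450 pairs found in both replicates were near. The median distance from the middle of the promoter fragment to that of the distal region was 7.84 kb for the called pairs, against 10.3 kb over all genes. Within single lists it was 17.3 kb in replicate 1 and 129 kb in replicate 2, against 19.8 and 101 kb over all genes. In replicate 2, 22.8% of P450 pairs were over 1 Mb, against 19.4% over all genes, and in replicate 1 the shares were 0.445 and 0.371%. Of the replicate 1 pairs, 14.5% were also in replicate 2 (12.7 to 16.5), below the 19.0% of all genes. By chromosome, this share was above that of all genes on chromosome 17 alone (17.3 against 14.7%). On the other chromosomes with P450 genes it was below, such as 11.2 against 26.4% on chromosome 19 and 10.9 against 14.1% on chromosome 7. Of the replicate 2 pairs, 15.1% were also in replicate 1 (13.2 to 17.1), against 17.1% of all genes.

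**Figure D3:**
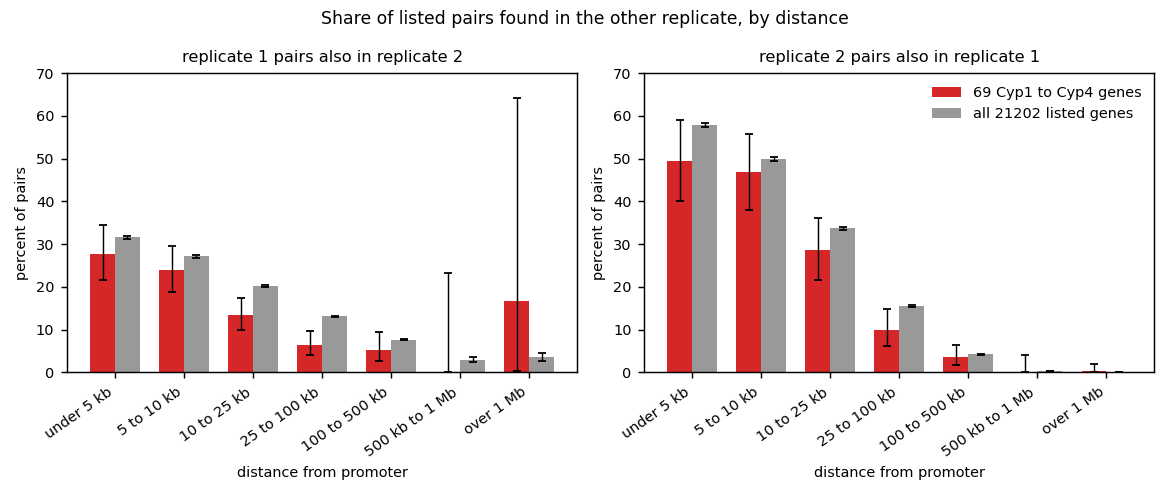
Percent of the pairs of replicate 1 that were also in replicate 2 (left) and of replicate 2 also in replicate 1 (right) by distance from the promoter, for the 69 P450 genes (red) and all 21202 listed genes (grey), with exact 95% intervals as bars. Under 5 kb, 27.7% of the P450 pairs of replicate 1 were in replicate 2, and at 25 to 100 kb 6.48% were.

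The overlap of the P450 pairs was below that of all genes in each distance range under 500 kb, in both directions. Under 5 kb, 27.7% of replicate 1 pairs were in replicate 2 (21.7 to 34.4), against 31.6% over all genes. At 10 to 25 kb it was 13.5% (10.0 to 17.5), against 20.1%, and at 25 to 100 kb 6.48% (4.06 to 9.74), against 13.1%, with the value of all genes above both intervals. Of the replicate 2 pairs, 49.6% under 5 kb were in replicate 1, against 57.9%, and at 10 to 25 kb 28.6% were (21.7 to 36.2), against 33.7%. The values of all genes lay inside both exact 95% intervals. At 25 to 100 kb the replicate 2 share was 10.0% (6.30 to 14.9), against 15.5%, a value just above the interval. Of the 69 P450 genes, 21 had a call over 15 kb (30.4%, 19.9 to 42.7), against 41.3% of all genes.

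**Figure D4:**
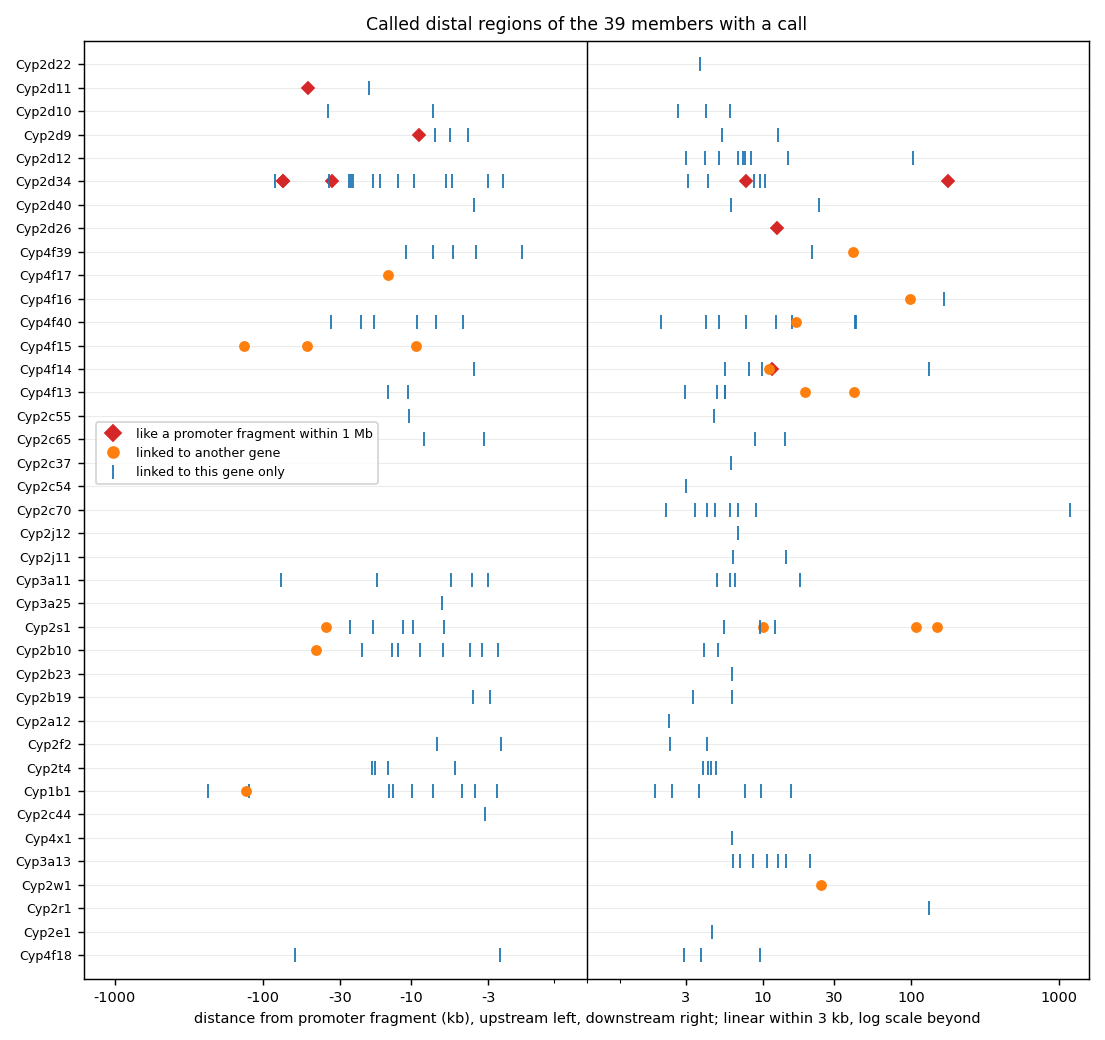
Called distal regions of the 39 genes with a call, by distance from the promoter fragment in kb, upstream left and downstream right, linear within 3 kb and logarithmic beyond. Diamonds are regions like a promoter fragment within 1 Mb, circles other regions linked to another gene, and ticks regions linked to this gene alone. Most of the 196 pairs lie within 25 kb, and the 1178 kb pair of Cyp2c70 stands alone.

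Of the 196 called pairs, 100 had a distal region outside annotated genes (51.0%), 77 in the gene itself (39.3%), 9 in another P450 gene of these families, 1 in the pseudogene Cyp4f41-ps and 9 in another gene. Downstream regions numbered 108 and upstream ones 88. No listed promoter fragment of another gene lay in between for 168 pairs (85.7%), and 12 pairs were over 100 kb. The called regions had a median length of 531 bp, against 568 bp over all genes.

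Of the 188 distal regions, 13 were called for another gene too (6.91%, 3.73 to 11.5), against 13.9% of the called regions of all genes. Linked to more than 1 P450 gene were 6 regions, 1 in the Cyp2d cluster, 4 in the Cyp4f clusters and 1 between Cyp2s1 and Cyp2b10. In single lists sharing was more frequent, with 27.6% of the regions of P450 genes in replicate 1 and 20.1% in replicate 2 listed for another gene, against 21.9 and 20.4% over all genes. In replicate 1 a region in Cyp4f15 was listed for Cyp4f14, Cyp4f15, Cyp4f16, Cyp4f39 and Cyp4f40. In replicate 2 the region in Cyp4f39 described above was listed for Cyp4f13, Cyp4f15, Cyp4f17, Cyp4f39 and Cyp4f40.

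Hi-C listed 150 pairs at 48 of the 69 genes. Of these pairs 25 were called (16.7%, against 15.8% over all genes), 56 were in replicate 1, 36 in replicate 2 and 83 in neither. Of the called P450 pairs, 12.8% were in Hi-C (8.43 to 18.3), against 12.5% over all genes. Cyp2d12, Cyp2d34, Cyp4f40 and Cyp4f13 had 3 such pairs each, and Cyp1b1, Cyp2b10 and Cyp3a11 had 2 each. All but 1 of the 25 were under 25 kb, the other being that of Cyp1b1 at 129 kb. Hi-C pairs were listed for 34 of the 39 genes with a call and for 14 of the 30 without.

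Genes that supply or regulate the P450 enzymes were counted from 2 lists. Of 19 genes for electron donors and heme synthesis 18 were listed, and 13 of these had a call (72.2%, 46.5 to 90.3). Alad, the dehydratase of heme synthesis, had 107 listed regions in replicate 1, 283 in replicate 2 and 58 in both. Por, the reductase that passes electrons to the P450 enzymes, had 104, 149 and 28, and Hmox1, which degrades heme, had 41, 106 and 19. These exceeded every P450 gene in replicate 2, and Alad and Por did so in all 3 numbers. Ppox, Fdx1, Uros, Urod and Pgrmc1 had no call. Of 27 receptors for foreign compounds and liver transcription factors, 18 had a call (66.7%, 46.0 to 83.5), with 25 called regions at Stat5b and 19 at Nr1i2. Ahr, with 7 listed regions in replicate 1 and 1 in replicate 2, and Nr1i3, with 22 and 3, had no call. These 2 were named after their values were seen. Both shares have intervals that include the 60.7% of all genes.

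Compared with like gene groups, the called share of the P450 genes of families 1 to 4 (56.5%) was near that of 18 other P450 genes, of which 11 had a call (61.1%, 35.7 to 82.7), and of 46 genes of conjugating enzymes, of which 29 did (63.0%, 47.5 to 76.8). Olfactory receptors, another family of neighbouring copies, had a call in 37 of 496 genes (7.46%, 5.31 to 10.1), below the interval of the P450 genes. Their median was 1 listed region in replicate 1 and 0 in replicate 2, against 10 and 14 in the P450 genes. Replicate 2 listed 35.3% of them, against 91.3% of the P450 genes, and a call needs both lists. The share of replicate 1 pairs also in replicate 2 was 13.1% in the other P450 genes. It was 17.0% in the genes of conjugating enzymes and 5.52% in the olfactory receptors.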

How the data were processed

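The authors aligned each read end on its own to mm9 and discarded reads with several positions, duplicates and pairs under 1 kb apart. An interaction needed 3 or more pairs of reads per replicate. The deposited values are positions of promoter fragments and distal regions, with no read numbers, in 4 lists: each HiCap replicate, their combination, and Hi-C with replicates pooled. The number of reads behind a pair is not in the lists. The Capture-C samples were not analysed here. The P450 genes and gene lists were chosen with earlier results of these data known.

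Calls were pairs of gene, promoter fragment and distal region in both replicate lists. Positions are given from 1, and distances run between fragment midpoints. Genes and exons came from GENCODE vM1 and sequences from the NCBIM37 genome, both of mm9. Of the listed promoter fragments, 2 that end past their chromosome were left out of the sequence measures. Fragments were compared with BLAST+ 2.17.0 (dc-megablast), at a limit that misses matches of very short fragments. Exact binomial 95% intervals came from scipy 1.17.1. No test was run, since genes of a cluster are not replicates. The genes named are all with a call, the single genes without one and the 5 without one that had the most distal regions in each replicate. Cyp2d13, Cyp2c38 and the genes named for alike promoters (Cyp2a5, Cyp2c40, Cyp2c69 and Cyp3a44) were named after their values were seen. Of the 2 lists of other genes, those with the most called regions are named, and 1 of them is not reported here. The counting of calls, distances and clusters was tested on simulated lists.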

Additional observations from a re-analysis of the deposited data

How the results depend on the processing

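Of 41 alternative values of 8 results, 21 stayed within the interval or within 1.5 times the value above and 20 moved. The authors' combined list, calls keyed on gene and distal region, merged adjoining fragments, cluster gaps of 100 or 500 kb, other symbol rules and leaving out regions like promoter fragments, chosen after seeing the data, moved none of the results they were applied to. The combined list rests on the same replicates and the same rule as the calls, and held 195 of the 196 called pairs. Its values could therefore hardly move. Each replicate list alone gave 91.3 to 95.7% of P450 genes with a listed pair, 1300 to 1348 pairs, a median of 17.3 to 129 kb, 20.1 to 27.6% of regions shared with another gene, 2.77 to 4.15% in Hi-C, and 93.0 to 94.7% of clustered and 83.3 to 100% of single genes. Over all genes, each list alone gave 87.5 to 94.5% with a listed pair. Genes were taken in through a pair in either list, so high shares of genes followed from the rule. The overlap was 15.1% when taken over the replicate 2 pairs, a change of denominator that still uses both lists. With regions matched within 1 kb, 467 pairs were called, 34.6% of replicate 1 pairs were in replicate 2 and 26.5% of called pairs in Hi-C, and 46 genes had a call, among them Cyp2c50 and Cyp2c67. Only over 15 kb, 30.4% of genes had a call, with 53 pairs, 20.4% of regions shared and 5.66% in Hi-C. The cause of these shifts was not tested, beyond the looser or stricter matching itself. No paired analysis was possible because no test was run and the Hi-C list pools its replicates. Read numbers would be needed to set a precision for a single pair.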
